A study of Mus musculus with 6 samples.

Results

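The major histocompatibility complex (MHC) genes of the mouse, which carry the prefix H2, were examined together with the genes that load, regulate and assist antigen presentation in mouse spleens. The members were every array probe whose RefSeq transcript maps to a symbol that starts with H2-, plus the probes of B2m, Cd74, Ciita, Tap1, Tap2, Tapbp, Tapbpl, Erap1, Rfx5, Rfxank, Rfxap, Cd80 and Cd86. This gave 58 probes of 47 genes among the 39429 probes of the array, and 37 of the 47 genes lie on chromosome 17. The members comprise 31 probes of 24 class I heavy chain genes and 12 probes of 10 genes of the class II chains and of class II peptide loading. Of the 58 probes, 41 (35 genes) exceeded background clearly on each of the 3 arrays of at least one group and were tested among 17363 such probes. The other 17 were too dim.

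Both groups were male ICR mice, an outbred stock, 8 weeks old, that received cyclophosphamide at 40 mg/kg for 5 days to suppress immunity. The SA-H group (arrays 4, 5 and 6) then received schisandrol A, a lignan of Schisandra fruit, by gavage at 1000 mg/kg per day as the labels give it, and the MOD group (arrays 1, 2 and 3) received distilled water, for 4 weeks according to the treatment text. The sample labels place the SA-H arrays at day 28 and the MOD arrays at day 5, so the treatment and the labelled day cannot be told apart. The paper's methods describe another dose of schisandrol A and a shorter course. Nothing in the labels says that the arrays of a group came from separate mice, so the p-values measure only how far these samples differed among themselves, and that spread may be technical. The tissue is labelled spleen while the extraction text also mentions liver. Of the markers of lymphocytes, all 16 for B cells and 19 of 20 for T cells were tested, against 5 of 12 liver markers. The probes of the liver genes Alb, Apoa1, Ttr, Fga, Fgb, Ahsg and Cps1 were too dim to test. On the log2 scale explained below, the tested liver markers Trf and Serpina1a stood at 3.37 to 4.10 and 2.12 to 2.94 over the arrays. Apoa2 stood at 0.05 to 1.72, Tat at -1.67 to 2.32 and Cyp2e1 at -2.38 to 0.38. Whether liver tissue contributed to the samples was not tested.

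MHC class I molecules pair a polymorphic heavy chain with the light chain B2m and show peptides from the cell's own proteins to CD8 T cells. The TAP transporter carries those peptides into the endoplasmic reticulum, where tapasin loads them. MHC class II molecules pair an alpha with a beta chain on B cells, dendritic cells and macrophages, and show peptides from ingested proteins to CD4 T cells. Their groove is first filled by the invariant chain Cd74, and H2-DM exchanges its remnant for peptide. Classical class I and class II genes are among the most polymorphic genes of mammals, and outbred mice can carry different alleles. How well each probe matches those alleles, and how far it also detects a closely related heavy chain gene, was not tested.

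The start regions of the MHC genes hold short elements that give class I and class II their shared control in the textbook view. They are shown as background, and their part in the levels described next was not tested. A window of 250 bases before and 50 after the gene start was present for 35 of the 47 member genes (RefSeq sequence, GRCm38.p6). In the class II stretches the capitals mark the X box consensus, which the Rfx5, Rfxank and Rfxap complex binds, where it is present, and the core of the Y box (ATTGG), which nuclear factor Y binds. They lie at chr17:34287857-34287926 (minus strand) for H2-Aa, chr17:34305753-34305822 (plus) for H2-Eb1 and chr17:34153075-34153144 (plus) for H2-DMb1.
H2-Aa: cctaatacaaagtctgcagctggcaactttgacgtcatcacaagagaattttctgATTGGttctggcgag
H2-Eb1: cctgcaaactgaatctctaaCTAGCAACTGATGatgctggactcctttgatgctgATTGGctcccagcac
H2-DMb1: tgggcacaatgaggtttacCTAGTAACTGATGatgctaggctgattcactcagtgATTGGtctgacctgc
In the class I stretches the capitals mark, in this order, the kappa B consensus of enhancer A, which NF-kB binds, an element like the interferon response site (GAANNGAAA, here on the opposite strand) and the Y box core. They lie at chr17:34000353-34000462 (minus strand) for H2-K1, chr17:35262919-35263028 (plus) for H2-D1 and chr17:35439017-35439126 (plus) for H2-Q7.
H2-K1: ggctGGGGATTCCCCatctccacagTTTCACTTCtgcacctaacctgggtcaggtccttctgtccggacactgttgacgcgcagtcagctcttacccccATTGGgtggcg
H2-D1: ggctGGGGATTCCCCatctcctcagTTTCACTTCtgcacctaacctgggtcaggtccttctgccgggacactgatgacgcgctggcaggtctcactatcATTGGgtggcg
H2-Q7: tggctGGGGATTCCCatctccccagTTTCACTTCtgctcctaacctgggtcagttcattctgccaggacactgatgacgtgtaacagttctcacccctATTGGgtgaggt
The motifs were searched on both strands, and a match of one motif could overlap a match of another. The X box was found in 3 of 8 class II genes searched (H2-DMb1, H2-Eb1 and H2-Eb2), in 0 of 19 class I genes and in 0.384% of all 32851 windows. The Y box core was found in 8 of 8 class II genes and 16 of 19 class I genes, but also in 37.4% of all windows. The interferon-response-like element was found in 7 of 19 class I genes and 0 of 8 class II genes, against 7.52% of all windows, and the kappa B consensus in 6 of 19 class I genes (H2-D1, H2-K1, H2-M3, H2-Q4, H2-Q6 and H2-Q7), 1 of 8 class II genes (H2-Aa) and 8.46% of all windows. A match is a description of the letters, not a binding site.

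Levels are given as the log2 of the processed signal relative to the 75th percentile of the array, and a change is the SA-H mean minus the MOD mean on that scale. Of the 17363 probes tested, 0 passed an adjusted p of 0.05 (limma), and the smallest adjusted p of a member was 0.062, for a probe of H2-Q10 that entered the test only through the SA-H arrays. At an unadjusted p under 0.05, 1935 probes (11.1%) were higher and 2214 (12.8%) lower in SA-H spleens. Relative to the array median in place of the 75th percentile, 1248 (7.19%) were higher and 2733 (15.7%) lower, since the median of all tested changes was then -0.36 instead of -0.04. The arrays were scanned over 3 days. SA-H array 6 and MOD arrays 1 and 3 belong to the first day, SA-H array 4 and MOD array 2 to the second, and SA-H array 5 stands alone on the third. Arrays that share a scan identifier in the scanner headers are called a slide below, though the headers name no slide. MOD arrays 1 and 3 shared an identifier, as did SA-H array 4 and MOD array 2, while SA-H arrays 5 and 6 each had their own. The share of spots well above background was 44.7%, 73.9% and 45.7% on SA-H arrays 4, 5 and 6, against 43.1%, 72.2% and 49.4% on MOD arrays 1, 2 and 3.

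Of the 41 tested member probes, 6 (14.6%) were higher and 2 (4.88%) lower in SA-H spleens at an unadjusted p under 0.05. The higher ones were the costimulatory ligand Cd80, the class II beta chain H2-Eb1, the class I-like heavy chains H2-M11 and H2-T24, 1 of 2 probes of H2-Q10 (the one that entered through the SA-H arrays only), and the loading chaperone Tapbp. The lower ones were the peptide-trimming enzyme Erap1 and the heavy chain H2-Q8. In whole spleens, fewer cells of a type and less RNA per cell cannot be told apart. The share of higher members lay near the 11.1% of all tested probes, and the share of lower members was below the 12.8% of all. Relative to the array median, 4 members were higher and 6 (14.6%) lower, against 7.19% and 15.7% of all tested probes, so the lower share was then near that of all. The 2 groups did not overlap for 6 members that were higher (14.6%, against 12.7% of all tested probes) and 5 that were lower (12.2%, against 21.2%). Among the higher ones, the H2-Q10 probe entered the test through the SA-H arrays only, and Ciita had only 2 SA-H values. Among the lower ones, Tap1 entered through the MOD arrays only. Blocking on scan day, which sets SA-H array 5 aside, gave 5 members past an adjusted p of 0.05 (Cd80, H2-M11, H2-Q4, H2-T24 and that H2-Q10 probe), as were 1347 of all tested probes (7.76%). At an unadjusted p under 0.05 the block gave 10 members higher and 4 lower, against 17.2% and 13.5% of all tested probes. Those added were Cd74, Ciita, the brighter H2-Ab1 probe and H2-Q4, which were higher, and Rfxank, Tap1 and the dimmer H2-Q2 probe, which were lower, and Erap1 was lost.

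**Figure D1:**
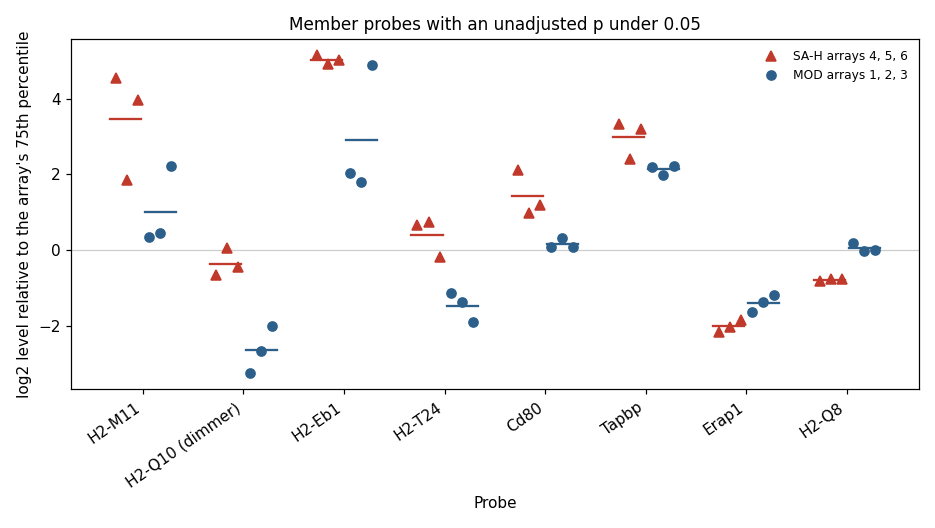
The log2 level relative to the array's 75th percentile (vertical axis) is shown for the 8 member probes with an unadjusted p under 0.05, with SA-H arrays 4, 5 and 6 as red triangles on the left of each pair and MOD arrays 1, 2 and 3 as blue dots on the right, and lines at the means. MOD array 3 reached 4.90 for H2-Eb1, next to the SA-H arrays, and for H2-M11 the groups overlapped.

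The class II beta chain H2-Eb1 had log2 levels of 5.16, 4.91 and 5.01 on SA-H arrays 4, 5 and 6, against 2.05, 1.81 and 4.90 on MOD arrays 1, 2 and 3. The SA-H arrays were alike and MOD arrays 1 and 2 were low, while MOD array 3 lay only just under the lowest SA-H array. The change was 2.11 (standard error 0.77, limma adjusted p = 0.16), and 3.10 without MOD array 3. Without any one of the other arrays the change was 1.55 to 2.17 and the unadjusted p no longer under 0.05, as it was not after quantile normalization (1.89). Within the first scan day the change was 1.54, and within the second 3.35. The unadjusted p stayed under 0.05 after normexp (2.10), blocked on scan day (2.31) and with the slide as a random block (2.45), but not by analysis of variance. Relative to the array median the change was 1.79. There, 4 of 41 members and 1321 of 17363 tested probes passed an adjusted p of 0.05 (limma). The 4 were H2-Eb1, H2-M11, H2-T24 and a probe of H2-Q10.

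The alpha chain gene H2-Aa lies beside H2-Eb1 on chromosome 17 and did not follow it. Its log2 levels were -1.95, 2.68 and 2.68 on SA-H arrays 4, 5 and 6, against 2.81, 2.29 and 2.10 on the MOD arrays. A single array, SA-H array 4, stood far below the other 5, which spanned only 0.71. The change was -1.27 with a standard error of 1.18 (adjusted p = 0.52), and 0.28 without SA-H array 4. Within the first scan day it was 0.22, and within the second, which holds SA-H array 4, it was -4.24.

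H2-Ab1, the beta chain that pairs with the H2-Aa product, was measured by 2 probes. The brighter one stood at 6.63, 5.91 and 6.44 on the SA-H arrays, against 5.43, 5.19 and 6.19 on the MOD arrays, and the dimmer one at 6.46, 5.93 and 6.19, against 5.72, 5.31 and 6.11. On both probes SA-H array 4 was the highest of the 6 arrays, where H2-Aa was lowest, and MOD array 3 overlapped the SA-H group. The changes were 0.72 (standard error 0.34, adjusted p = 0.24) and 0.48 (standard error 0.29, adjusted p = 0.34). For the brighter probe the change was 0.98 blocked on scan day and 0.90 with the slide as a random block, both with an unadjusted p under 0.05. H2-Eb2, a further class II beta chain, stood at 0.41, -0.14 and 0.12 on the SA-H arrays, against 0.01, -0.05 and 0.86 on the MOD arrays, which overlapped (change -0.14, standard error 0.32). Its change was 0.15 without MOD array 3 and 0.02 when blocked on scan day.

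Class II peptide loading did not move in one direction. Cd74, the invariant chain, stood at 4.48, 3.72 and 4.57 on the SA-H arrays, against 3.92, 3.40 and 3.99 on the MOD arrays. The groups overlapped and the change was 0.49 (standard error 0.32, adjusted p = 0.38). Blocked on scan day, it was 0.81, with the unadjusted p under 0.05. H2-DMa and H2-DMb1 encode the chains of the peptide exchange factor H2-DM. H2-DMa stood at -3.54, -0.66 and -0.93 on the SA-H arrays, against -1.03, -0.86 and -0.48 on the MOD arrays. On SA-H array 4 it was not well above background, and its change of -0.92 (standard error 0.72) became -0.0047 without that array. H2-DMb1 stood at 3.07, 4.10 and 4.11 on the SA-H arrays, against 3.86, 3.65 and 3.14 on the MOD arrays, again with SA-H array 4 lowest. Its change was 0.21 (standard error 0.37), and -0.11 relative to the array median.

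H2-O, formed by H2-Oa and H2-Ob, holds back H2-DM in B cells. H2-Oa stood at 0.47, 1.92 and 2.15 on the SA-H arrays, against 2.06, 1.59 and 2.35 on the MOD arrays. Its change was -0.48 (standard error 0.47), and 0.04 without SA-H array 4. The brighter H2-Ob probe stood at 2.08, 2.13 and 2.45 on the SA-H arrays, against 1.95, 1.69 and 2.76 on the MOD arrays, whose range held every SA-H array (change 0.09, standard error 0.33, and -0.23 relative to the array median). The dimmer H2-Ob probe stood at -1.11, -0.39 and -0.36 on the SA-H arrays, all under the -0.13, -0.25 and 0.19 of the MOD arrays. Its change was -0.56 (standard error 0.30, adjusted p = 0.28), and -0.31 without SA-H array 4, so with all arrays the probes of H2-Ob differed in sign. Over the 11 tested probes of the class II chains and of class II loading, 1 was higher and 0 lower at an unadjusted p under 0.05, against 11.1% and 12.8% of all tested probes. Their median change was 0.09, against -0.04 for all tested probes. It was -0.23 relative to the array median (-0.36 for all), -0.05 after normexp background correction (0.0062 for all) and 0.28 without SA-H array 4 (-0.04 for all).

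**Figure D2:**
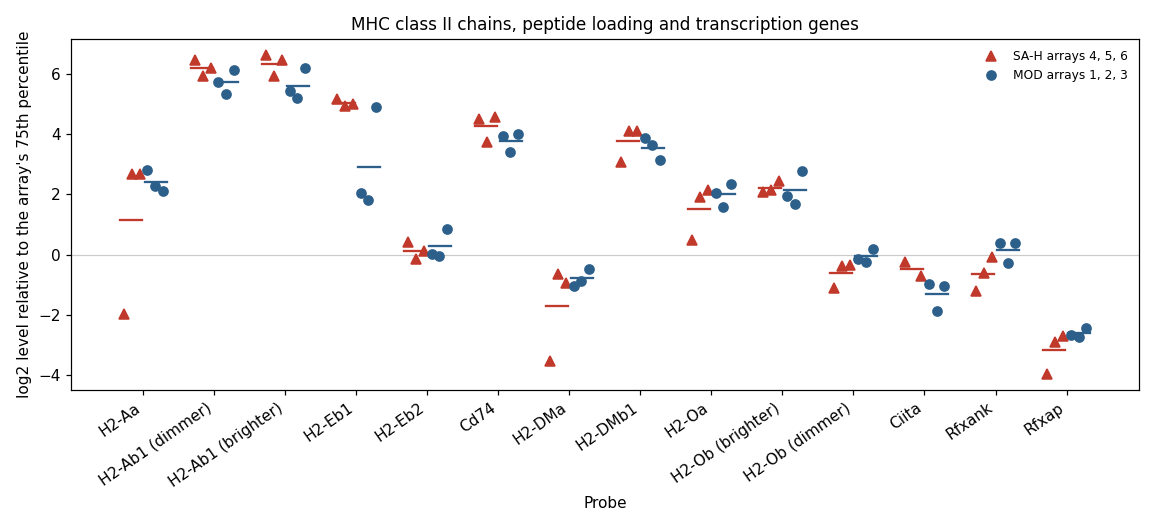
The log2 level relative to the array's 75th percentile (vertical axis) is shown for each tested probe of the class II chains, class II loading and class II transcription genes, with SA-H arrays 4, 5 and 6 as red triangles on the left, MOD arrays 1, 2 and 3 as blue dots on the right, and lines at the means. SA-H array 4 (leftmost triangle) lies at -1.95 for H2-Aa and -3.54 for H2-DMa, and MOD arrays 1 and 2 at 2.05 and 1.81 for H2-Eb1.

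Among the factors that switch on class II transcription, Ciita, the coactivator, stood at -0.23 and -0.72 on SA-H arrays 4 and 6, against -0.98, -1.86 and -1.04 on the MOD arrays. Its spot on SA-H array 5 was an outlier for the scanner software and was left out, so the fit used 2 SA-H values. These lay above all MOD arrays, with a change of 0.82 (standard error 0.38, adjusted p = 0.25). Rfxank and Rfxap are subunits of the complex that binds the X box. Rfxank stood at -1.21, -0.60 and -0.10 on the SA-H arrays, against 0.39, -0.27 and 0.38 on the MOD arrays (change -0.80, standard error 0.36, adjusted p = 0.22), and -1.12 relative to the array median, with the unadjusted p then under 0.05. Rfxap stood at -3.95, -2.90 and -2.70 on the SA-H arrays, against -2.68, -2.72 and -2.42 on the MOD arrays (change -0.58, standard error 0.36, adjusted p = 0.36), and was too dim on 1 SA-H array. Without SA-H array 4 the change of Rfxap was -0.19. The groups overlapped for both subunits. Rfx5, the DNA-binding subunit, has 2 probes, and neither was above background on more than 1 array of a group.

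For the classical class I heavy chains, which present peptides to CD8 T cells, no probe separated the groups. H2-K1 was measured by a probe spotted 10 times, which stood at 5.84, 6.12 and 6.31 on the SA-H arrays, against 5.95, 6.25 and 5.97 on the MOD arrays. The change was 0.03 (standard error 0.24), with the sign turned relative to the array median (-0.29), after quantile normalization (-0.39) and after normexp (-0.10). Within an array the standard deviation of its repeat spots was 0.05 to 0.14. The dimmer H2-K1 probe stood at 3.35, 4.61 and 4.72 on the SA-H arrays, against 4.35, 4.40 and 4.20 on the MOD arrays (change -0.09, standard error 0.39, and 0.35 without SA-H array 4). H2-D1 stood at 4.40, 5.88 and 5.98 on the SA-H arrays, against 5.86, 6.06 and 5.62 on the MOD arrays (change -0.43, standard error 0.44, and 0.08 without SA-H array 4). SA-H array 4 was the lowest of the 6 on both.

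The remaining classical heavy chain gene by name, H2-K2, is a transcribed pseudogene in the RefSeq annotation. Its brighter probe stood at 4.55, 5.90 and 6.11 on the SA-H arrays, against 4.94, 5.10 and 4.94 on the MOD arrays, so that SA-H array 4 was below and SA-H arrays 5 and 6 above every MOD array (change 0.53, standard error 0.42, and 1.01 without SA-H array 4). Its dimmer probe stood at 4.32, 5.62 and 5.37 on the SA-H arrays, against 5.20, 4.87 and 4.96 on the MOD arrays (change 0.09, standard error 0.37, and -0.23 relative to the array median). The light chain B2m, which every class I heavy chain needs to reach the cell surface, stood at 6.78, 6.21 and 6.49 on the SA-H arrays, against 6.12, 6.23 and 5.34 on the MOD arrays. The groups overlapped by a narrow margin, and the change was 0.60 (standard error 0.32, adjusted p = 0.29), and 0.32 without MOD array 3. SA-H array 4 was the highest of the 6 for the light chain.

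Among the nonclassical heavy chains, which are less polymorphic, H2-T24 separated the groups. It stood at 0.67, 0.74 and -0.18 on the SA-H arrays, against -1.13, -1.38 and -1.91 on the MOD arrays. Every SA-H array lay above every MOD array, and the change was 1.88 (standard error 0.35, limma adjusted p = 0.073). Blocked on scan day, it was 1.64 (adjusted p = 0.039). A second H2-T24 probe was above background on only 1 array of each group and was not tested.

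H2-Q10 encodes a secreted heavy chain known best from liver, and the changes of its probes differed in sign. The dimmer probe stood at -0.66, 0.05 and -0.45 on the SA-H arrays, against -3.26, -2.67 and -2.02 on the MOD arrays. It was above background on 2 of 3 MOD arrays and entered the test only through the SA-H arrays, and on MOD array 1 its level lay under the lowest level well above background there (-2.98). Its change of 2.29, which was 0.69 in the deposited table of values processed by the authors (whose columns could not all be matched to their arrays), is therefore given as a description. The brighter probe stood at -1.56, 0.91 and 0.47 on the SA-H arrays, against 1.01, 0.83 and -0.19 on the MOD arrays. These overlapped, with a change of -0.61 (standard error 0.66) that became 0.14 without SA-H array 4. Of the liver markers tested, Tat was higher and Serpina1a lower in SA-H spleens at an unadjusted p under 0.05, with changes of 1.93 and -0.65, and the summed level of the 5 markers was 22.9 to 25.7 on the SA-H arrays, against 21.4 to 26.6 on the MOD arrays. Trf was the brightest of the 5 on every array and weighed most in these sums. The part of the liver markers in the H2-Q10 signal was not tested.

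With all 6 arrays H2-M11 showed the largest change of the members, and also a wide spread. It stood at 4.55, 1.86 and 3.97 on the SA-H arrays, against 0.35, 0.45 and 2.22 on the MOD arrays, so that SA-H array 5 lay below MOD array 3. The change was 2.45 (standard error 0.78, limma adjusted p = 0.13). It was 1.91 without SA-H array 4 and 2.13 without MOD array 1, and both left the unadjusted p above 0.05. Within the second scan day it was 4.10. H2-Q4 was also highest on SA-H arrays 4 and 6, at 7.35, 6.06 and 7.30 on the SA-H arrays, against 6.07, 4.98 and 6.30 on the MOD arrays (change 1.12, standard error 0.49, adjusted p = 0.22). Blocked on scan day, its change was 1.65 (adjusted p = 0.040), and that of H2-M11 was 3.29 (adjusted p = 0.026).

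H2-Q8 was lower in SA-H spleens. It stood at -0.83, -0.76 and -0.75 on the SA-H arrays, against 0.20, -0.03 and -0.01 on the MOD arrays. The arrays of each group lay close together and apart from the other group, with a change of -0.83 (standard error 0.22, limma adjusted p = 0.099). It was -0.85 within the first scan day and -0.80 within the second. On this probe SA-H array 4 differed by only -0.07 from the mean of SA-H arrays 5 and 6.

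For H2-Q7, which encodes the Qa-2 antigen, the levels were 2.63, 5.53 and 5.54 on the SA-H arrays, against 5.24, 5.49 and 5.05 on the MOD arrays. SA-H array 4 was 2.42 below the lowest of the other 5, which spanned 0.49. The change was -0.69 (standard error 0.75), and 0.28 without SA-H array 4. The other tested nonclassical probes were those of H2-M3, which presents bacterial formyl peptides, H2-T23, the Qa-1 molecule read by receptors of natural killer cells, H2-Q2 (2 probes), H2-Q6 and H2-T10, a transcribed pseudogene in RefSeq. Their changes ran between -1.06 (the dimmer H2-Q2 probe, whose groups did not overlap) and 0.14 (H2-T23), with adjusted p-values of 0.28 to 0.97. Without SA-H array 4 the change of the dimmer H2-Q2 probe was -0.40. Over the 18 tested class I heavy chain probes, 3 were higher and 1 lower at an unadjusted p under 0.05, against 11.1% and 12.8% of all tested probes. Their median change was -0.05, against -0.04 for all tested probes. It was -0.37 relative to the array median (-0.36 for all), -0.20 after quantile normalization (-0.11 for all) and 0.35 without SA-H array 4 (-0.04 for all).

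In class I peptide loading, Tapbp (tapasin), the chaperone that bridges the heavy chain to the TAP transporter, stood at 3.34, 2.40 and 3.20 on the SA-H arrays, against 2.20, 1.98 and 2.21 on the MOD arrays. All SA-H arrays lay above all MOD arrays, and the change was 0.85 (standard error 0.31, limma adjusted p = 0.16). It was 1.14 without SA-H array 5, with the unadjusted p still under 0.05, and 0.67 to 0.89 without any one of the others, each of which took the unadjusted p above 0.05. It was 0.53 relative to the array median and 0.11 in the deposited value table, neither of which passed that limit. Erap1, the aminopeptidase that trims peptides to length in the endoplasmic reticulum, stood at -2.15, -2.03 and -1.84 on the SA-H arrays, against -1.64, -1.38 and -1.18 on the MOD arrays. The groups did not overlap, and the change was -0.61 (standard error 0.24, limma adjusted p = 0.19). It was -0.72 to -0.50 without any one array, and the unadjusted p was then above 0.05 each time. It was -0.21 after normexp, -0.93 relative to the array median, -0.57 when blocked on scan day and 0.23 in the deposited value table, and none of these passed that limit as a lower value. After quantile normalization (-0.78) and with the slide as a random block (-0.64) it did pass. The same held by analysis of variance and with only probes above background on all 6 arrays, but not without a filter.

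The subunits of the TAP transporter had changes of opposite sign, and neither passed the test. Tap1, spotted 10 times, stood at -2.80, -1.26 and -1.32 on the SA-H arrays, against -1.15, -1.21 and -0.78 on the MOD arrays. Every SA-H array lay below every MOD array. On the lowest, SA-H array 4, Tap1 was not well above background, so it entered the test only through the MOD arrays. Its repeat spots on that array had a standard deviation of 0.30 (0.05 to 0.09 on the others). The change was -0.75 (standard error 0.44, adjusted p = 0.33), and -0.24 without SA-H array 4. Tap2 stood at 2.55, 2.59 and 2.94 on the SA-H arrays, against 2.16, 2.13 and 2.69 on the MOD arrays, which overlapped (change 0.37, standard error 0.27, adjusted p = 0.41). Tapbpl, the tapasin-like editor TAPBPR, stood at -1.72, -0.91 and -0.55 on the SA-H arrays, against -1.36, -1.50 and -0.88 on the MOD arrays (change 0.19, standard error 0.36, and -0.13 relative to the array median).

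**Figure D3:**
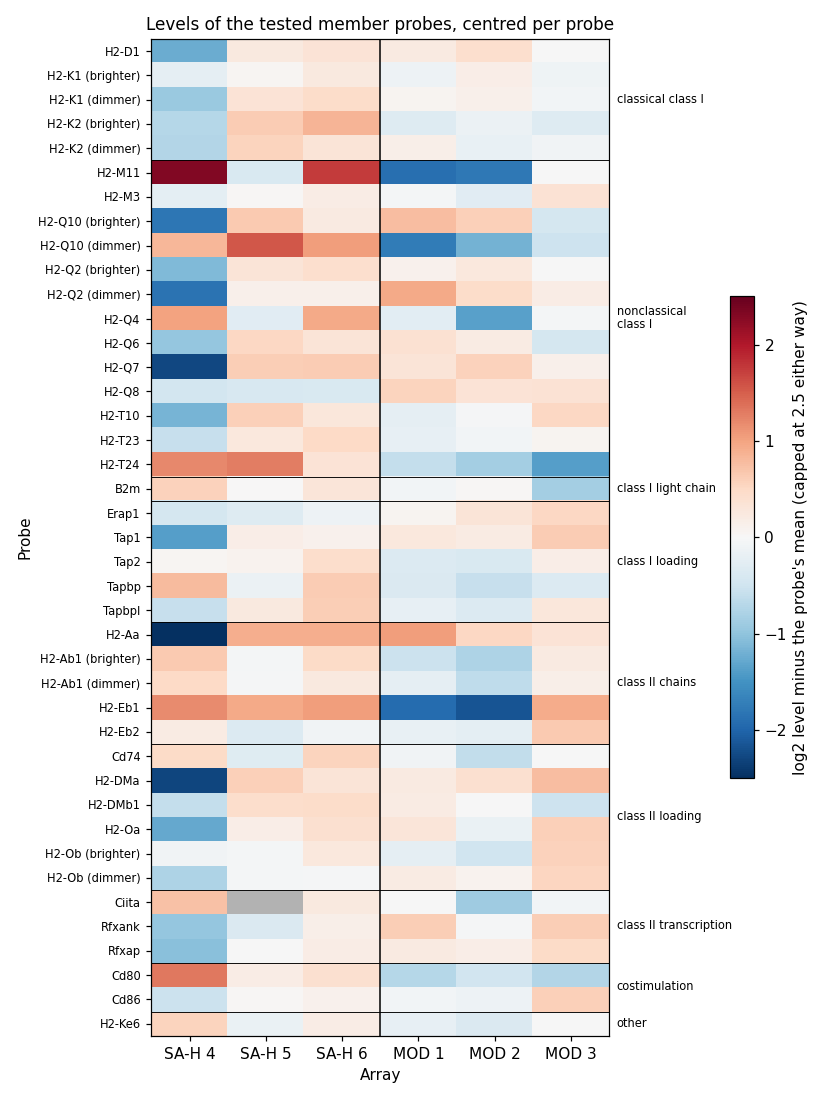
Each row is a tested member probe and each column an array, SA-H arrays 4, 5 and 6 left of the black line and MOD arrays 1, 2 and 3 right of it, and the colour gives the log2 level minus the mean of the probe, capped at 2.5 either way, with grey for the Ciita spot left out on SA-H array 5. The column of SA-H array 4 is blue in all 5 rows of classical class I probes and in H2-Aa and H2-DMa, and red in H2-M11 and Cd80.

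Cd80 and Cd86 encode the ligands on antigen-presenting cells that engage CD28 and CTLA-4 on T cells. Cd80 stood at 2.11, 0.99 and 1.20 on the SA-H arrays, against 0.09, 0.33 and 0.07 on the MOD arrays. Every SA-H array lay above every MOD array, and the change was 1.27 (standard error 0.34, limma adjusted p = 0.10), 0.93 without SA-H array 4. Blocked on scan day, it was 1.40 (adjusted p = 0.037). It was 0.95 relative to the array median and 0.36 in the deposited value table, both with an unadjusted p above 0.05. Cd86 stood at 1.53, 2.11 and 2.19 on the SA-H arrays, against 2.004, 1.94 and 2.66 on the MOD arrays, which overlapped (change -0.26, standard error 0.31, adjusted p = 0.62). The second Cd80 probe was above background on 1 array of each group and was not tested. H2-Ke6, an enzyme gene of steroid and fatty acid metabolism that lies in the H2 region and presents no antigen, had a change of 0.38 (standard error 0.27) with overlapping groups.

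**Figure D4:**
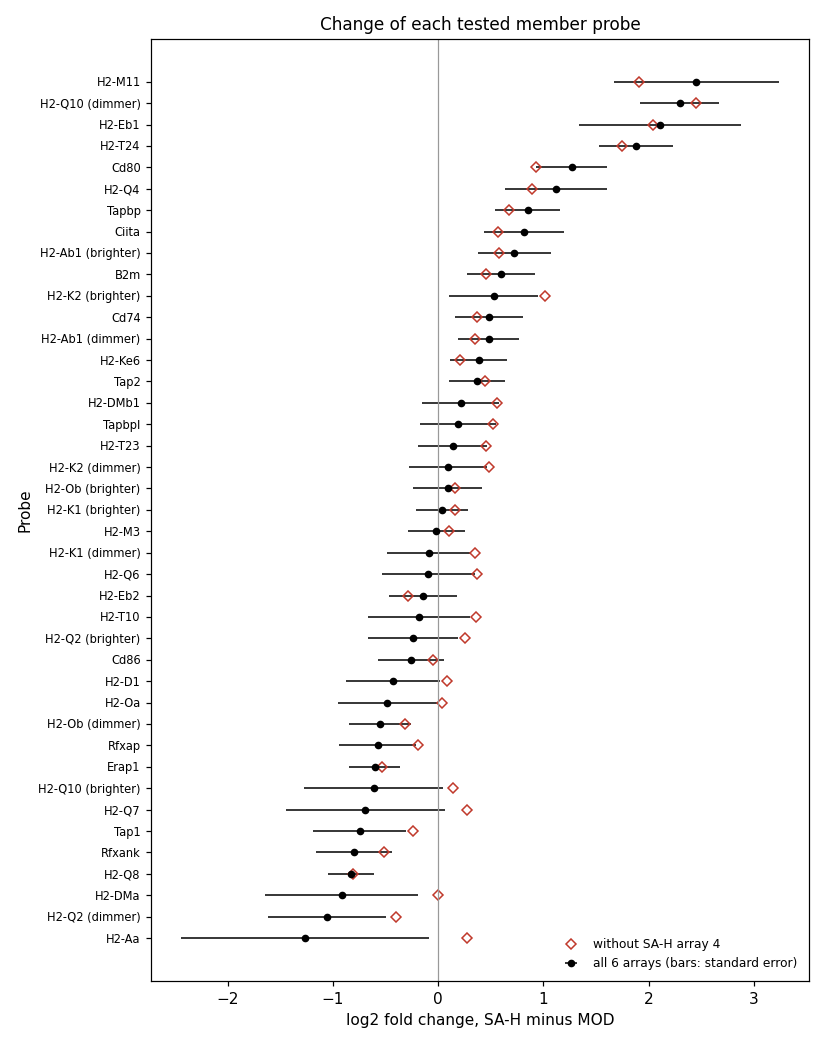
The log2 fold change, SA-H minus MOD (horizontal axis), of each of the 41 tested member probes is drawn as a black dot with a bar of 1 standard error, and the change without SA-H array 4 as a red diamond. H2-Aa moves between -1.27 and 0.28 and H2-Q7 between -0.69 and 0.28, while H2-Eb1 (2.11 and 2.04) and H2-Q8 (-0.83 and -0.81) barely move.

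SA-H array 4 recurred in these values. It was the lowest of the 6 arrays for 24 of the 41 tested members (58.5%), against 30.9% of all tested probes, and for 13 of the 18 class I heavy chain probes (72.2%), among them all 5 probes of classical heavy chains. It was the highest for 10 members (24.4%), against 34.7% of all. Its level was at least 1 log2 unit below the mean of SA-H arrays 5 and 6 for 16 members (39%, against 12.5% of all tested probes) and at least 1 above it for 2 members, Cd80 and H2-M11 (16% of all). The median of this difference was -1.25 over the class I heavy chain probes, -0.21 over the class II chains and loading, and 0.12 over all tested probes. The farthest were H2-Aa (-4.63), H2-Q7 (-2.90), H2-DMa (-2.74) and the brighter H2-Q10 probe (-2.25). The 75th percentile of the signal was 220 on SA-H array 4, against 433 and 868 on the other SA-H arrays and 599 to 840 on the MOD arrays. The part of this lower signal in these values was not tested.

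Within the first scan day (SA-H array 6 against MOD arrays 1 and 3) the median change of the class I heavy chain probes was 0.36, and within the second (SA-H array 4 against MOD array 2) it was -0.68. For the class II chains and loading the medians were 0.22 and 0.40, and for all tested probes 0.0044 and 0.05. All 8 members called at an unadjusted p under 0.05 kept their direction within both days. Where the groups did not overlap, this was fixed in advance, so only H2-M11, whose groups overlapped, could have turned. Without SA-H array 4, 4 members were higher and 1 lower at that limit, against 9.47% and 14.6% of all tested probes.

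Of 24 other genes of the class I pathway, 23 were tested, with 1 higher and 3 lower at an unadjusted p under 0.05 (11.1% and 12.8% of all tested probes) and a median change of 0.06 (-0.26 relative to the array median). The calnexin cycle and loading complex genes Calr (calreticulin) and Pdia3 were lower, with changes of -1.26 and -1.09. Calr stood at 1.06, 1.54 and 1.67 on the SA-H arrays, against 2.66, 2.64 and 2.76 on the MOD arrays. The cytosolic peptidase Thop1, which degrades peptides, changed by -1.17 and the proteasome activator subunit Psme2 by 0.93. Thop1 stood at -3.25 on SA-H array 4, under the lowest level well above background there (-2.59). It entered the test only through the MOD arrays. Of 23 class II pathway genes on the array, 21 were tested, 0 higher and 3 lower against the same shares of all, with a median of -0.32 (-0.64 relative to the array median). The lower ones were Sppl2a, the protease that clears the Cd74 stump (-1.48), Nfyb, a subunit of nuclear factor Y (-1.12), and the lysosomal protease Ctsb (-0.70). The other subunits of that factor did not pass and differed in sign. Nfyc had a change of -0.66, and Nfya, at 4.57, 0.94 and 3.73 on the SA-H arrays, against 0.64, 0.26 and 2.08 on the MOD arrays, one of 2.09. Ifi30, the lysosomal thiol reductase, also did not pass (-0.57). The adjusted p-values of these 10 genes were 0.074 to 0.23.

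MHC class I-like genes outside the H2 group were mostly dim. Of 17 listed, 12 were on the array and 4 tested. Procr, the protein C receptor, was higher, at 1.69, 1.22 and 1.38 on the SA-H arrays, against 0.91, 0.33 and 0.45 on the MOD arrays (change 0.87, standard error 0.27, adjusted p = 0.13). Cd1d1, which presents lipids, had a change of 0.54 (adjusted p = 0.23), and the changes of Fcgrt, the neonatal Fc receptor, and Hfe, an iron regulator, were -0.92 and 0.27. Of 14 further costimulation genes 7 were tested. Havcr2, the checkpoint receptor TIM-3, was higher by 1.17 at an unadjusted p under 0.05, and 0 were lower, against 11.1% and 12.8% of all. Slamf1, Cd40, the receptor that licenses antigen-presenting cells, and Lgals9 had changes of -0.70, 0.43 and -0.51, which did not pass.

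Markers of the cells that carry class II and Cd80 were read from the same arrays, where 11.1% of all tested probes were higher and 12.8% lower. Of 16 B cell markers, 4 were higher (Cd22, Cd72, Spib and Fcer2a) and 0 lower at an unadjusted p under 0.05, with a median change of -0.05. Their summed level, in units of the array's 75th percentile, was 192 to 230 on the SA-H arrays, against 167 to 216 on the MOD arrays, and Cd22 was missing on SA-H array 5. Of 18 tested dendritic cell markers, 2 (Siglech and Clec10a) were higher and 0 lower, with sums of 96.4 to 211 on the SA-H arrays, against 72.1 to 127 on the MOD arrays. Siglech was the brightest of them on every array and weighed most in these sums. Its log2 levels were 7.14, 5.46 and 7.14 on the SA-H arrays, against 5.26, 5.13 and 5.68 on the MOD arrays. The probes of the dendritic cell markers Zbtb46 and Ccl22 were too dim. Of 15 tested macrophage and monocyte markers, 1 was higher (Spic) and 1 lower (C1qa), with sums of 80.4 to 134 on the SA-H arrays, against 110 to 137 on the MOD arrays. C1qa stood at -4.70, -1.06 and -1.10 on the SA-H arrays, against 0.20, -0.17 and 0.14 on the MOD arrays. On SA-H array 4 this lay under the lowest level well above background there (-2.59), so C1qa entered the test only through the MOD arrays. T cell markers had 0 higher and 0 lower of 19, with sums of 37.8 to 52.0 on the SA-H arrays and 37.8 to 76.1 on the MOD arrays. Erythroid markers had 1 higher and 6 lower of 22, with sums of 913 to 2570 on the SA-H arrays and 990 to 1219 on the MOD arrays. The globin genes Hba-a1, Hba-a2 and Hbb-bt were the brightest of them and weighed most in these sums, at 9.23, 9.39 and 9.03 on SA-H array 4. Fat markers had 0 higher and 6 lower of 8, with sums of 5.84 to 6.70 on the SA-H arrays and 10.6 to 15.0 on the MOD arrays. Only 3 of these 8 were above background on all 6 arrays. Of the lower ones, Adipoq, Cidec, Car3 and Cfd stood at -4.51, -4.79, -4.30 and -3.87 on SA-H array 4, also under -2.59. They entered the test only through the MOD arrays, so their lower values are given as a description. The part of these cell types in the member values was not tested.

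The 17 member probes that were not tested belong to Rfx5 (2 probes), H2-DMb2, the second probes of Cd80 and H2-T24, H2-M1, H2-M5, H2-M9 (2 probes), the H2-M10 genes H2-M10.1, H2-M10.2, H2-M10.3 (2 probes), H2-M10.4 and H2-M10.6, H2-Q1 and H2-T3. In mice the H2-M10 molecules are known from sensory neurons of the vomeronasal organ. The probes of H2-M10.1, H2-M10.2, H2-M10.4, H2-M10.6 and H2-M5 were above background on 0 of the 6 arrays. H2-DMb2, the partner copy of H2-DMb1, and H2-T3, the thymus leukemia antigen, were above background on 1 SA-H array and 2 MOD arrays each.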

How the data were processed

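Spleen RNA labelled with Cy3 was hybridized to 6 single-colour Agilent mouse arrays (43020 spots apart from controls). The intensity values deposited by the authors come from Agilent Feature Extraction 11.0.1.1, which subtracts the background and removes gradients within an array. The log2 values of the value table were also deposited, and how the authors made them is not given in the sources used here.

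The log2 processed signal was taken relative to each array's 75th percentile. Outlier spots (172 to 634 per array) were left out, 0 spots were saturated, and spots of a probe were averaged. Probes were named through their RefSeq accession (27234 of 39429, 69.1%). Probes had to exceed background clearly on each of the 3 arrays of at least one group. limma 3.58.1 (R 4.3.3) was used for SA-H minus MOD, with Benjamini-Hochberg adjustment over 17363 probes, and the procedure was tested on simulated data. Python 3.11.15 was used for the rest. Alternatives were normexp (offset 50), quantile and median scaling, other filters, the value table, scan day and slide blocks, the analysis of variance of the paper's statistics section, and leaving out each array. The normexp correction was run on the median signal, since the files read here hold no mean signal column. The number of arrays limits the precision.

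The members and lists were chosen with earlier results of these data known. All members are named, those of the loading, class II, classical class I and costimulation groups and those with an unadjusted p under 0.05 with all values, and of each pathway list up to 4 genes with the smallest p. Of the class II pathway list, Nfya and Ifi30 are given beyond this rule. H2-Q4, H2-Q7 and the genes named in the marker lists were added after their values were seen. The brightest tested probe stood for each listed gene.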

Additional observations from a re-analysis of the deposited data

How the results depend on the processing

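No paired analysis was possible because the replicate numbers of the SA-H arrays (4, 5 and 6) and of the MOD arrays (1, 2 and 3) are not shared. Of 692 values of single probes under the alternatives, 533 kept their direction and their side of the threshold or moved by less than the replicate spread, 31 lost the call, 36 gained one, 58 turned sign and 34 moved further. Within a scan day no p-value was computed. There, a turn of sign in a probe not called with all 6 arrays was counted by the size of its move. Such turns, as for H2-Aa (0.22 within the first day, -1.27 with all arrays), are not among the 58 or in the lists of turns below. The probes past an adjusted p of 0.05 numbered 417 with normexp (2 members), 1 with quantile normalization (0), 1321 relative to the array median (4), 1 with only probes above background on all 6 arrays (0), 1962 in the value table (4), 1347 with the scan day as a block (5), 216 with the slide as a random effect (0), 0 without a filter (0), 0 by analysis of variance (0) and 0 without any one array. The members lower at an unadjusted p under 0.05 numbered 6 relative to the array median, 1 without a filter, 4 with the scan day block, 4 with the slide block and 1 to 2 without any one array. The higher ones numbered 11 in the value table, 10 with the scan day block and 3 to 8 without any one array. The class I median was -0.68 within the second scan day and -0.22 to 0.35 without any one array. The class II median was -0.13 to 0.28 without any one array.

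The sign turned relative to the array median for H2-DMb1 (-0.11), the brighter H2-K1 (-0.29), dimmer H2-K2 (-0.23) and brighter H2-Ob (-0.23) probes, H2-T23 (-0.18) and Tapbpl (-0.13). It turned after quantile normalization for the brighter H2-K1 (-0.39) and dimmer H2-K2 (-0.18) probes, H2-M3 (2.7e-04) and H2-T23 (-0.0606), and after normexp for the brighter H2-K1 (-0.10) and brighter H2-Ob (-0.17) probes, H2-T10 (0.0053) and Rfxap (0.0504). With the scan day block it turned for H2-Eb2 (0.0176), the dimmer H2-K2 probe (-0.0696) and H2-M3 (0.0350), and with the slide block for H2-Eb2 (0.0039), the brighter H2-K1 (-0.0698) and dimmer H2-K2 (-0.0292) probes and H2-M3 (0.0130). Only 1 of the 6 columns of the value table correlated best with its own array by level and 3 by deviation from the probe mean, so which array each column holds is not borne out. There the sign turned for B2m (-0.24), Cd74 (-0.0127), Cd86 (0.35), Erap1 (0.23), the dimmer H2-K1 probe (0.11), H2-M3 (0.45), H2-Oa (0.39), the dimmer H2-Ob probe (0.78), H2-Q6 (0.13), H2-T10 (1.26), Rfxank (0.19), Rfxap (0.25) and Tap1 (0.19).

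Without any one array, the changes that turned sign ran from -2.04 to 0.28 for H2-Aa, -0.71 to 0.0813 for H2-D1, -0.30 to 0.15 for H2-Eb2, -0.0772 to 0.16 and -0.34 to 0.35 for the brighter and dimmer H2-K1 probes, -0.16 to 0.48 for the dimmer H2-K2 probe, -0.16 to 0.16 for H2-M3, -0.80 to 0.0364 for H2-Oa, -0.13 to 0.40 for the brighter H2-Ob probe, -1.10 to 0.14 for the brighter H2-Q10 probe, -0.51 to 0.25 for the brighter H2-Q2 probe, -0.37 to 0.37 for H2-Q6, -1.18 to 0.28 for H2-Q7, -0.53 to 0.36 for H2-T10, -0.0827 to 0.46 for H2-T23 and -0.0677 to 0.52 for Tapbpl. The cause of these changes was not tested.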
